A study of Rattus norvegicus with 24 samples.

Results

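Neonatal rat testis cells were compared after 5 and after 3 days of three-dimensional culture, with 3 RNA sequencing libraries on each day. These were 6 of the 24 libraries of the series, taken by the culture day in their labels. Every library came from Sprague Dawley pups at postnatal day 5, of wild-type genotype, and held all cell types of the testis. Both groups were labelled as untreated controls, and neither had received the hormones used elsewhere in the study. After dissociation, the cells had been embedded at high density in 4.5 mg per mL of extracellular matrix gel under serum-free medium, of which 50% was replaced every 24 h. All 6 libraries, the 3 libraries of day 7 and the 3 of the freshly isolated cells were technical replicates from 1 litter. The p-values below therefore measured technical spread and say nothing of variation between litters. The comparison asked which messenger RNAs differed between these early days of culture.

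The immature testis is built of cords, in which Sertoli cells surround the germ cells, and of an interstitium with Leydig cells, vessels, macrophages and their precursors. Before puberty Sertoli cells still divide, and they secrete anti-Müllerian hormone and inhibin. Peritubular myoid cells wrap the cords and, together with Sertoli cells, lay down the basement membrane between them. Dissociated neonatal testis cells kept in a matrix gel can gather again into cord-like structures.

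Levels were in CPM, the counts of a gene per M reads of its library. Of 21425 genes in the table, 12363 reached 1 CPM in at least 3 of the 6 libraries and were tested. Differences are given as log2(CPM + 1) at day 5 minus day 3, ± SE, which understates the change of genes with few reads. They came from a limma fit over the 9 culture libraries of days 3, 5 and 7, with p-values adjusted over all 12363 genes. The threshold for a call was an adjusted p of 0.05, and only called genes are described as having risen or fallen.

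The 6 libraries held 17.3 to 27.1 M reads, so that 3 reads, the most that a count of 0 allows, equalled 0.111 to 0.174 CPM. That limit covers counting error only. On the first principal component of the 9 culture libraries, replicate 3 of day 5 lay at 43.1 and the other 8 at -24.4 to 8.67. Its median correlation across genes with the other culture libraries was 0.968, against 0.977 to 0.987 for the others. In this library 40 genes lay at least 2-fold above and 235 at least 2-fold below both other day 5 libraries on the log2(CPM + 1) scale. The median SD over genes was 0.158 at day 3 and 0.210 at day 5, and it was 0.133 at day 5 without replicate 3. Correlations were 0.966 to 0.988 within day 5 and 0.955 to 0.990 between the days, so libraries of different days were often as alike as libraries of the same day. Messenger RNA of the mitochondrial genome summed to 23280, 22105 and 10334 CPM at day 3 and to 32567, 16761 and 18462 CPM at day 5, and these ranges overlapped. Of its 13 genes 0 were called and 12 had a difference above 0, against 5489 of all 12363 genes. The median difference was 0.26, or 0.39 without replicate 3 of day 5. The part of single libraries and of the day in these values was not tested. Results are given with replicate 3 of day 5 and, where it matters, without it.

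**Figure D1:**
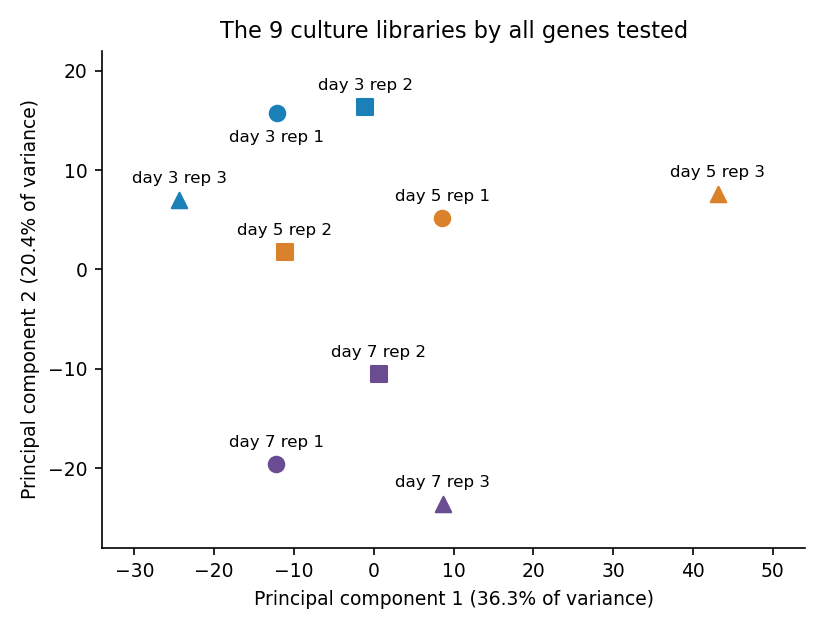
Principal components 1 (36.3% of the variance) and 2 (20.4%) of log2(CPM + 1) over the 12363 genes tested, with 1 point for each of the 9 culture libraries, coloured by day. Replicate 3 of day 5 stands alone at 43.1 on the first component, and the second component places day 3 above day 5, except that replicate 3 of day 5 lies above replicate 3 of day 3, and both days above day 7.

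Few messenger RNAs passed the test between day 5 and day 3. Limma called 4 genes higher (0.0324% of genes tested) and 2 lower (0.0162%). The genes that rose were Gstm5, Nfs1, Pcdh20 and Scube2, and those that fell were Rlim and Tgfbi. Without replicate 3 of day 5 the calls were 1 higher and 2 lower, namely Nfs1, Rlim and Tgfbi, and no other gene was called. On the recovered reads edgeR called 3 genes higher and 2 lower, and DESeq2 26 and 39. At an unadjusted p under 0.05, 350 genes were higher (2.83%) and 678 lower (5.48%). Lower genes made up 66.0% of these, and their share was smaller under other scalings, at 59.5% after TMM scaling, 51.3% with edgeR and 51.1% with DESeq2. The counts were 206 higher (1.67%) and 397 lower (3.21%) without replicate 3 of day 5, and leaving out single libraries moved the counts from 206 to 735 higher and from 328 to 1659 lower, with the upper ends without replicate 2 of day 5. The 3 libraries of day 5 lay above all 3 of day 3 for 670 genes (5.42%) and below them for 918 (7.43%). The median difference over all genes was -0.03, and the median size of a difference, 0.156, was no larger than the median SE of 0.165.

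The precision of the comparison bounds what could be seen. The median half-width of a gene's 95% interval was 0.36 on the log2 scale, and it was under 1 for 99.0% of genes. Mean levels on the log2(CPM + 1) scale differed at least 2-fold for 37 genes higher and 48 lower at day 5, and only the 6 called genes among these passed the test. Without replicate 3 of day 5, 54 genes differed at least 2-fold, and 44 of them did so in both fits. In the same fit day 7 differed from day 3 by 92 genes higher and 155 lower, and from day 5 by 0 higher and 1 lower. These comparisons share libraries, so their counts are given side by side and not as independent results.

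**Figure D2:**
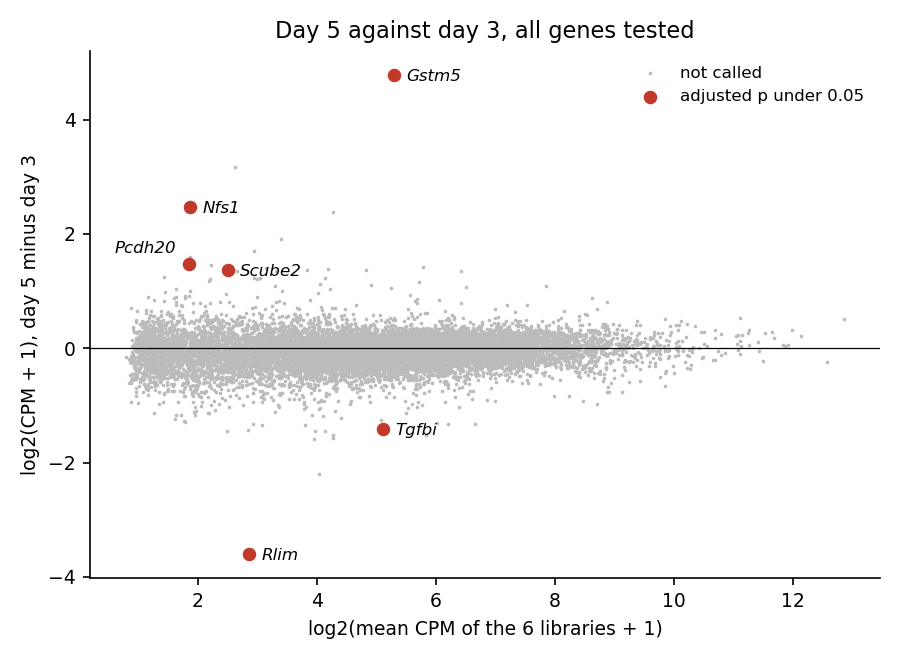
The difference in log2(CPM + 1) between day 5 and day 3 (vertical axis) against log2(mean CPM of the 6 libraries + 1) for the 12363 genes tested, with the 6 called genes in red. Gstm5 at 4.78 and Rlim at -3.60 are the extremes, and Tgfbi, at -1.41, is the other gene called lower.

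Tgfbi encodes a secreted matrix protein that binds collagens and integrins and is named for its induction by transforming growth factor beta. It measured 46.0, 52.3 and 49.2 CPM at day 3 and 19.5, 21 and 13.8 CPM at day 5. The groups lay far apart, with the lowest day 3 library above the highest day 5 library by more than either group's range. Tgfbi fell by 1.41 ± 0.16 on the log2 scale (adjusted p = 0.00832, limma, n = 3 and 3), and by 1.24 without replicate 3 of day 5 (adjusted p = 0.00537). Its day 7 libraries, at 19.2, 19.9 and 17.7 CPM, lay near those of day 5, and the freshly isolated cells held 33.2, 30.5 and 31.8 CPM. The call was lost when any 1 day 3 library was left out, where the adjusted p reached 0.0747 at most. In bulk samples such as these, fewer cells of a type and less RNA per cell cannot be told apart, and this holds for each result below.

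Scube2, a secreted protein that helps release hedgehog ligands from the cells that make them, went the other way. It measured 1.81, 2.43 and 2.27 CPM at day 3 and 8.0, 6.53 and 6.98 CPM at day 5, with no overlap. It rose by 1.37 ± 0.17 on the log2 scale (adjusted p = 0.0187, limma), and without replicate 3 of day 5 the difference was 1.38 with an adjusted p of 0.0684. The day 7 libraries were higher again in level, at 11.1, 8.71 and 9.59 CPM. Its call was also lost without any 1 day 3 library and without replicate 1 of day 5.

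Pcdh20 encodes a protocadherin, a membrane protein of cell-to-cell adhesion. Its levels were low, at 0.679, 1.03 and 0.952 CPM (18, 28 and 18 reads) at day 3 and 4.87, 3.07 and 5.08 CPM (84, 76 and 96 reads) at day 5. All day 5 libraries exceeded all day 3 libraries, and the day 7 libraries held 6.88, 5.68 and 6.75 CPM. It rose by 1.48 ± 0.21 (adjusted p = 0.0336, limma), and without replicate 3 of day 5 the difference was 1.38 with an adjusted p of 0.128. Its call was lost without any 1 of the 9 libraries except replicate 2 of day 5.

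Of the other 3 called genes, Rlim and Nfs1 were nearly absent on one of the days and present on the other, and Gstm5 was low at day 3. Rlim, an X-linked ubiquitin ligase, held 13.9, 10.8 and 12.6 CPM at day 3 (368, 292 and 238 reads) and 0.0579, 0.202 and 0.0529 CPM at day 5 (1, 5 and 1 reads). Replicates 1 and 3 of day 5 lay below the limit that a count of 0 allows, and replicate 2 above it. Rlim fell by 3.60 ± 0.19 on the log2(CPM + 1) scale (adjusted p = 9.80e-06, limma), a size that depends on the added 1 CPM because so few reads were left. Without replicate 3 of day 5 the adjusted p was 7.73e-05. It was equally low at day 7, at 0.115, 0.217 and 0.101 CPM, and in the freshly isolated cells, at 0.263, 0.183 and 0.0987 CPM, so day 3 was the exception among these 4 groups. The 12 libraries of the hormone experiment, made from older cultures of 3 litters, held 62.9 to 90.5 CPM, which was not tested against these.

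Nfs1, the mitochondrial cysteine desulfurase that supplies sulfur for iron-sulfur clusters, held 0.0755, 0.221 and 0.0529 CPM at day 3 (2, 6 and 1 reads) and 4.52, 5.65 and 5.40 CPM at day 5 (78, 140 and 102 reads). It rose by 2.47 ± 0.20 (adjusted p = 3.91e-04, limma), and without replicate 3 of day 5 the difference was 2.44 (adjusted p = 0.00318). The call was lost when the freshly isolated cells joined the fit (adjusted p up to 0.204). At day 7 it was again at 0.287, 0.173 and 0.101 CPM, and among the freshly isolated cells replicate 1 held 4.87 CPM and the others 0.229 and 0.230 CPM. The libraries of the same group thus differed 21.2-fold there.

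Gstm5, a glutathione transferase of the mu class, held 2.15, 1.88 and 1.16 CPM at day 3 (57, 51 and 22 reads) and 70.2, 60.5 and 92.7 CPM at day 5 (1212, 1501 and 1753 reads). It rose by 4.78 ± 0.62 (adjusted p = 0.0211, limma), and without replicate 3 of day 5 the difference was 4.62 with an adjusted p of 0.128. Its call was also lost without replicate 1 of day 5 and without any 1 day 3 library. Libraries of 1 group differed 14.2-fold at day 7, where replicate 1 held 19.5 CPM and the others 2.12 and 1.37 CPM, and 26.2-fold in the freshly isolated cells. Its paralog Gstm7 measured 891, 934 and 857 CPM at day 3 and 1093, 1167 and 1015 CPM at day 5, and reads of such close relatives may be split between them in counting.

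Levels that jumped within a group of technical replicates were rare. In all, 36 of the 12363 genes reached 5 CPM in some library of a culture group and ranged more than 10-fold within that group, 14 of them at day 3, 20 at day 5 and 16 at day 7. How reads were assigned where genes overlap or share sequence was not given in the sources used here, so the counts of Rlim, Nfs1 and Gstm5 are uncertain. In the RefSeq annotation of build GRCr8 these 3 genes overlapped 0 other genes. A similar pair did not pass the test. Aspn, which encodes the small matrix proteoglycan asporin, held 0.0377, 0.0737 and 0.211 CPM at day 3 and 9.85, 4.28 and 16.4 CPM at day 5 (adjusted p = 0.221, limma). Ogn, which encodes its relative osteoglycin, held 38.7, 15.1 and 25.3 CPM at day 3 and 4.75, 3.99 and 4.92 CPM at day 5 (adjusted p = 0.270, limma). Both overlap the span of Cenpp in the RefSeq annotation, and the libraries carried no strand. Whether their exons overlap those of Cenpp, and whether any reads were shared in counting, was not tested.

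**Figure D3:**
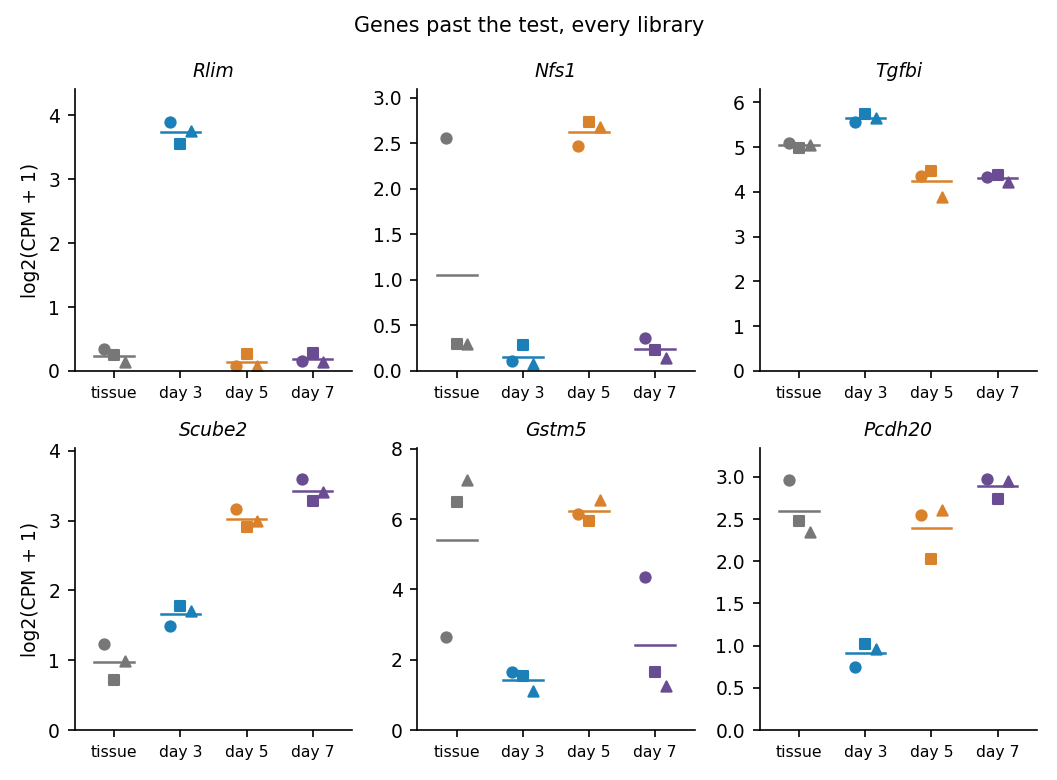
Levels of the 6 called genes as log2(CPM + 1) in the 12 libraries of the freshly isolated cells (tissue) and of days 3, 5 and 7. Points are libraries, with the shape giving the replicate, and bars are group means, and each panel has its own vertical scale. Rlim is high at day 3 alone, Nfs1 at day 5 and in 1 tissue library, and Gstm5 varies within tissue and day 7, while Tgfbi, Scube2 and Pcdh20 are close together within each culture day.

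Below the threshold, 7 genes had an adjusted p from 0.05 to 0.1. These and the genes after them, up to the 30 smallest p-values, were chosen after their values were seen and are described without calling a change. Col11a1, a chain of a minor fibrillar collagen, measured 43.1, 48.6 and 46.2 CPM at day 3 and 127, 81.8 and 161 CPM at day 5. The difference was 1.35 ± 0.21 (adjusted p = 0.0605, limma), and the day 7 libraries held 234, 187 and 246 CPM. The groups did not overlap, but the day 5 libraries differed among themselves by more than the day 3 libraries did.

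Igf1, an insulin-like growth factor that acts on several testis cell types, measured 24.6, 35.5 and 34.0 CPM at day 3 and 89.5, 54.3 and 72.4 CPM at day 5 (difference 1.16 ± 0.20, adjusted p = 0.0974, limma). Serpine2, a secreted inhibitor of serine proteases, measured 23.3, 29.7 and 30.7 CPM at day 3 and 74.0, 49.3 and 118 CPM at day 5 (difference 1.41 ± 0.25, adjusted p = 0.101, limma). For both genes the lowest day 5 library was replicate 2, and it still lay above all of day 3. Procr, the receptor of protein C, differed little among the day 5 libraries, with 20.9, 19.2 and 20.8 CPM against 8.34, 11.3 and 10.4 CPM at day 3 (difference 0.96 ± 0.15, adjusted p = 0.0605, limma). Adamts19, a secreted metalloprotease, measured 1.85, 3.10 and 2.70 CPM at day 3 and 7.71, 6.74 and 9.74 CPM at day 5 (adjusted p = 0.0696, limma).

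Among genes with lower levels at day 5, Dlk1, a membrane protein related to Notch ligands and found on Leydig cell precursors, measured 54.9, 61.7 and 67.8 CPM at day 3 and 29.3, 35.6 and 23.4 CPM at day 5. The difference was -1.05 ± 0.16 (adjusted p = 0.0621, limma), and day 7 lay between, at 38.5, 50.0 and 43.1 CPM. C1qtnf12, a secreted relative of complement C1q, measured 99.4, 86.7 and 126 CPM at day 3 and 40.4, 58.7 and 27.8 CPM at day 5 (difference -1.32 ± 0.23, adjusted p = 0.0974, limma). Aqp12a, an aquaporin, measured 63.4, 62.6 and 76.4 CPM at day 3 and 32, 37.8 and 34.1 CPM at day 5 (adjusted p = 0.0696, limma). In all 3 genes every day 5 library lay below every day 3 library. Without replicate 3 of day 5 the adjusted p-values of these 7 genes lay between 0.128 and 0.306.

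**Figure D4:**
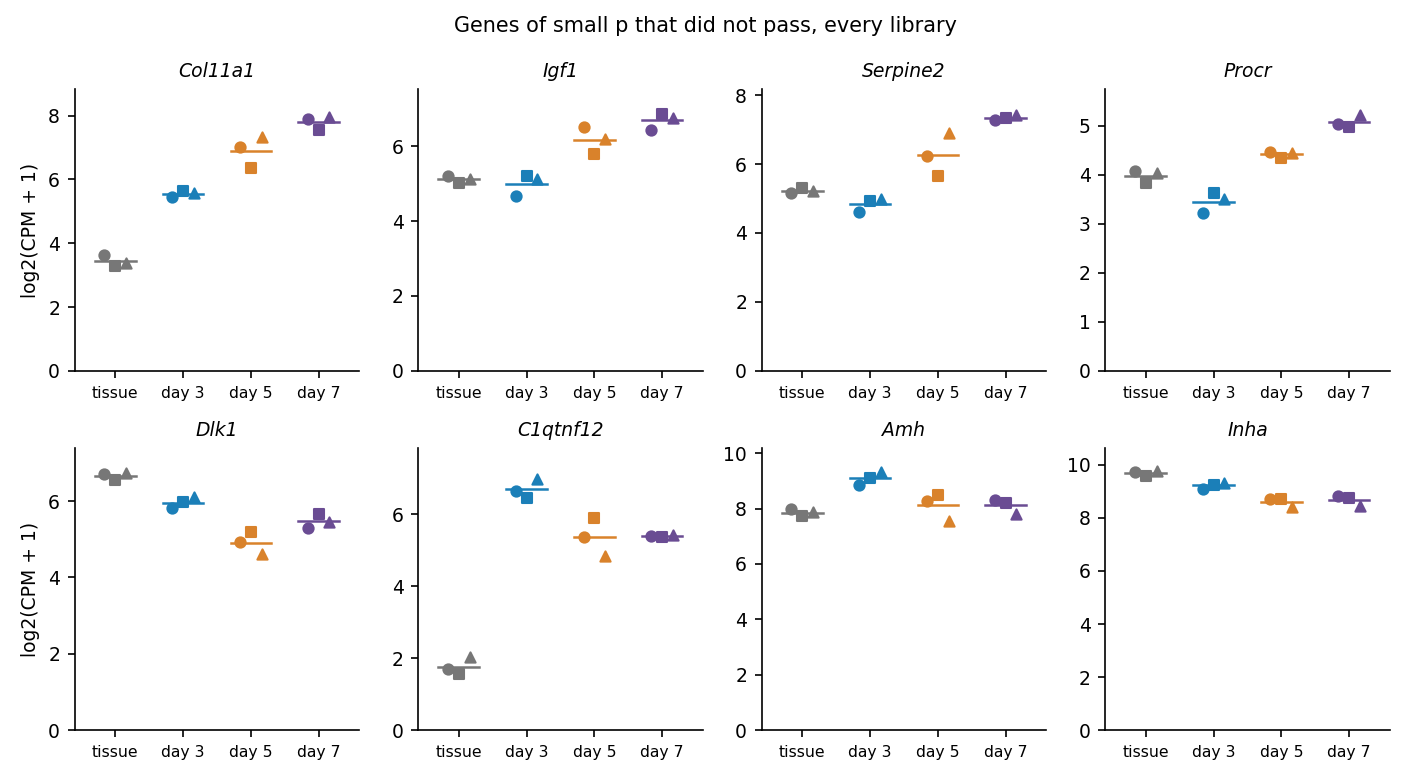
Levels of 8 genes that did not pass the test, as log2(CPM + 1) in every library of the freshly isolated cells (tissue) and of days 3, 5 and 7, drawn as points with a bar at each group mean. Col11a1, Igf1, Serpine2 and Procr lie higher at day 5 than at day 3 and Dlk1, C1qtnf12, Amh and Inha lower, each without overlap, at adjusted p-values of 0.0605 to 0.332.

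The hormones of immature Sertoli cells showed the same kind of separation without a call. Amh, which encodes anti-Müllerian hormone, measured 458, 552 and 645 CPM at day 3 and 311, 361 and 186 CPM at day 5. The difference was -0.98 ± 0.23 (adjusted p = 0.332, limma) and -0.70 without replicate 3 of day 5, the lowest library. Inha, the alpha subunit of inhibin, measured 541, 609 and 643 CPM at day 3 and 413, 415 and 343 CPM at day 5 (difference -0.62 ± 0.13, adjusted p = 0.270, limma). Dhh, the hedgehog ligand of Sertoli cells, overlapped between the days, with 245, 225 and 279 CPM at day 3 and 177, 228 and 157 CPM at day 5. The beta subunits overlapped as well, with Inhbb at 896 to 966 CPM at day 3 and 780 to 1002 CPM at day 5 and Inhba at 49.3 to 60.0 and 47.8 to 51.8 CPM.

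All Sertoli cell markers tested other than Amh and Inha overlapped between the days. Sox9, the factor that directs Sertoli cell fate, measured 183, 192 and 178 CPM at day 3 and 195, 201 and 145 CPM at day 5. Fshr, the receptor of follicle-stimulating hormone, measured 22.1, 29.5 and 18.0 CPM and then 22.9, 27.1 and 24.0 CPM, and Clu, which encodes clusterin, stood at 1467 to 1490.4 CPM and 1471 to 1631 CPM. Of the 17 Sertoli cell markers tested, 0 were called and 13 had a difference below 0, as had 6874 of all 12363 genes. Without overlap, 2 were lower (7.43% of all genes) and 0 higher (5.42%). At an unadjusted p under 0.05, 0 were higher and 3 lower (5.48% of all genes). Without replicate 3 of day 5, 4 were lower at that level (3.21% of all genes). The median difference was -0.15, or -0.01 without replicate 3 of day 5. The summed level of all 19 listed genes in the table, including those under the filter as in the sums below, did not overlap between the days. It was 6542 to 6937 CPM at day 3 and 5329 to 6403 CPM at day 5, with the lowest sum in replicate 3. The part of that library and of the share of Sertoli cells in the values of Amh and Inha was not tested.

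Genes of DNA replication were lower at day 5 as a list, each by a small amount that did not pass the test alone. Dividing cells load the MCM helicase onto origins with the help of Cdc6 and Cdt1, make nucleotides with Rrm2 and Tk1, copy DNA with polymerases such as Pold1, and join fragments with Fen1 and Lig1. Of the 31 genes tested, 0 were called and 30 had a difference below 0, with Ccne2 the exception at 0.00. Among all 12363 genes, 6874 had a difference below 0. In 19 of them every day 5 library lay below every day 3 library, against 7.43% of all genes tested, and 0 lay above. At an unadjusted p under 0.05, 15 were lower, against 5.48% of all genes, and without replicate 3 of day 5 the number was also 15, against 3.21%. The median difference was -0.28, and -0.32 without that library, against -0.03 over all genes. With edgeR and DESeq2, 27 were below 0 and 12 lower at that p with a median of -0.26, and DESeq2 called 2, Cdt1 and Rrm2. The list was chosen with earlier results of these libraries known, and its members are not independent of each other.

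The summed level of these genes was 2230, 2052 and 2278 CPM at day 3, 1698, 1781 and 1877 CPM at day 5 and 1487, 1583 and 1328 CPM at day 7. The 3 days did not overlap in this sum. Cdt1, which licenses origins, measured 53.2, 49.9 and 53.9 CPM at day 3 and 39.9, 39.3 and 34.3 CPM at day 5 (difference -0.46 ± 0.11, adjusted p = 0.341, limma). Rrm2, the small subunit of ribonucleotide reductase, measured 42.5, 38.2 and 45.6 CPM and then 28.0, 30.1 and 30.9 CPM (difference -0.49 ± 0.12, adjusted p = 0.396, limma). Both genes were thus lower at day 5 in every library, by less than 2-fold.

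The MCM genes, which encode the helicase subunits, lay within a narrow band of differences. Mcm3 measured 141, 119 and 144 CPM at day 3 and 94.9, 112 and 96.0 CPM at day 5, and Mcm5 measured 115, 105 and 125 CPM and then 75.1, 93.8 and 102 CPM. Mcm6, at 147, 145 and 141 CPM and then 113, 111 and 139 CPM, came closest to overlap. All 6 MCM genes, Mcm2 to Mcm7, were without overlap, with differences of -0.26 to -0.41 and adjusted p-values of 0.565 to 0.589. Pcna, the sliding clamp, overlapped through replicate 3 of day 5, with 175, 162 and 175 CPM at day 3 and 135, 145 and 174 CPM at day 5.

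E2F factors are known to drive many replication genes through sites close to the transcription start. Promoters from RefSeq (build GRCr8, 250 bases before to 50 after the start) were searched on both strands for TTTCCCGC and TTTGGCGC, which are letters of known E2F sites. Of the 31 replication genes 25 had a promoter in the table, and 11 of these held a match (44.0%). Among those without overlap, 7 of the 15 with a promoter held a match (46.7%). A match lay in 420 of all 27457 promoters (1.53%). That set took in genes not tested here, and the share among genes tested was not counted. Among mitosis genes, 25 had a promoter there and 0 held a match. A match describes letters and not a bound site. The promoters of the 3 replication genes with the smallest p-values among those without overlap that held a match are shown, 5′ to 3′ on the gene's own strand with the match in capitals, since they show where the motif lies in genes on which the pattern rests.
Cdt1, chr19:67528999-67529298, plus strand: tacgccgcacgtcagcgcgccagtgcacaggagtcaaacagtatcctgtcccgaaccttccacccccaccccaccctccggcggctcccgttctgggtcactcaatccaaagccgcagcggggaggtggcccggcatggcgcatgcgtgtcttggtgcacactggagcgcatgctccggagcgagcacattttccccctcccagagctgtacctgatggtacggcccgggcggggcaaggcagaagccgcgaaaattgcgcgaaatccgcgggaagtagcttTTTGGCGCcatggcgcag
Mcm3, chr9:30733697-30733996, minus strand: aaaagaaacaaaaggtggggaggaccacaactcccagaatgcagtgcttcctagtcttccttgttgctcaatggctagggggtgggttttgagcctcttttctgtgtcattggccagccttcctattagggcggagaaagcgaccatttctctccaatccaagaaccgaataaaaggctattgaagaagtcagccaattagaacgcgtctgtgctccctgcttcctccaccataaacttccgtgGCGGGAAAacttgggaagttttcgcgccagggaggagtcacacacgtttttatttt
Mcm5, chr19:13488563-13488862, plus strand: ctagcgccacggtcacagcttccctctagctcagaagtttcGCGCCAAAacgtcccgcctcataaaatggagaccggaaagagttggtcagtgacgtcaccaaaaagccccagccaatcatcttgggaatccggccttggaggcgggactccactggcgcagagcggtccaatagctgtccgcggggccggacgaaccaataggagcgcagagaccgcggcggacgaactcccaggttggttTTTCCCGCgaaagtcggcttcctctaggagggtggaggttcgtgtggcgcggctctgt
The Cdt1 and Mcm3 windows each held 1 match and the Mcm5 window 2, one in each orientation. The Cdt1 match began at base 283 of the window, downstream of the annotated start, and the Mcm3 match at base 245.

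Genes of mitosis showed a weaker pattern of the same direction. Of 29 tested, 0 were called, 27 had a difference below 0 (6874 of all 12363 genes), and 14 were lower without overlap (7.43% of all genes) and 0 higher. At an unadjusted p under 0.05, 6 were lower (5.48% of all genes), or 3 without replicate 3 of day 5 (3.21% of all genes), and the median difference was -0.18. Bub1b, a spindle checkpoint kinase, measured 61.4, 58.2 and 65.5 CPM at day 3 and 51.7, 49.3 and 37.7 CPM at day 5, and Aurkb, a kinase of chromosome segregation, 58.5, 54.7 and 62.4 CPM and then 42.2, 48.5 and 46.3 CPM. The proliferation markers Mki67 and Top2a overlapped, Mki67 with 203, 220 and 106 CPM at day 3 and 200, 164 and 142 CPM at day 5 and Top2a with 324, 354 and 230 CPM and then 299, 261 and 312 CPM. In both of these replicate 3 of day 3 was the lowest of the 6 libraries.

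Ribosomal protein genes had a median difference of -0.29 over 33 tested, with 0 called, 30 below 0 (6874 of all 12363 genes) and 7 lower without overlap (7.43% of all genes). At an unadjusted p under 0.05, 8 were lower (5.48% of all genes). Without replicate 3 of day 5 the median was -0.19 and 2 were lower at that level (3.21% of all genes). Rps28, a subunit protein of the small ribosome, measured 96.2, 89.8 and 235 CPM at day 3 and 71.7, 87.4 and 19.5 CPM at day 5, so its extremes were replicate 3 on each day. The part of these libraries in the list's value was not tested.

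Genes of the immediate early response, transcription factors that cells induce within minutes of a stimulus, were more often higher than lower. Of 18 tested, 0 were called, 4 were higher and 0 lower at an unadjusted p under 0.05 with and without replicate 3 of day 5, and 6 were higher and 1 lower without overlap. The background for higher genes was 2.83% by p, or 1.67% without replicate 3 of day 5, and 5.42% by overlap. For lower genes it was 5.48% by p, or 3.21% without that library, and 7.43% by overlap. A difference above 0 was found in 12 of the 18, against 5489 of all 12363 genes. Fos measured 7.36, 7.15 and 4.02 CPM at day 3 and 12.3, 8.63 and 11.5 CPM at day 5 (difference 0.74 ± 0.24, adjusted p = 0.565, limma), and Egr2 8.41, 8.84 and 7.08 CPM and then 15.8, 10.7 and 11.4 CPM. Jun and Egr1, the most abundant of this kind beside Jund, overlapped between the days. The summed level of the list also overlapped, at 898 to 995 CPM at day 3 and 714 to 1145 CPM at day 5.

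The lists of matrix genes held abundant messenger RNAs on both days and 0 called members. The sum of 15 collagens of the fibrillar and network types was 10309, 11147 and 11343 CPM at day 3 and 12713, 11447 and 13717 CPM at day 5, and their median difference was 0.02. Col3a1, a main fibrillar collagen, measured 2732, 2749 and 3230.2 CPM and then 3420, 3268 and 3876 CPM, without overlap (difference 0.28 ± 0.14, adjusted p = 0.589, limma). Mmp2, a gelatinase that also cleaves basement membrane collagen, measured 294, 278 and 336 CPM and then 403, 401 and 390 CPM (difference 0.40 ± 0.10, adjusted p = 0.413, limma).

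Of 26 matricellular, elastic fibre and crosslinking genes 20 had a difference above 0 (5489 of all 12363 genes). The median was 0.22, and 0.08 without replicate 3 of day 5. Without overlap, 1 was higher (5.42% of all genes) and 1 lower (7.43%). At an unadjusted p under 0.05, 3 were higher (2.83% of all genes) and 0 lower, or 1 higher without replicate 3 of day 5 (1.67%). Ccn2, a matricellular growth factor of connective tissue, measured 342, 335 and 323 CPM at day 3 and 500, 468 and 853 CPM at day 5. Lox, the collagen crosslinking enzyme, measured 399, 450 and 376 CPM and then 477, 358 and 795 CPM. Replicate 3 of day 5 was the highest library for both. Of the 18 basement membrane genes 0 were called, 3 were higher without overlap (5.42% of all genes) and 0 lower, and the median difference was 0.11. At an unadjusted p under 0.05, 1 was higher (2.83% of all genes) and 1 lower (5.48%). Without replicate 3 of day 5 these were 0 (1.67%) and 0 (3.21%).

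Markers of the other cell types gave no call. Of 18 germ cell markers tested, 0 lay under an unadjusted p of 0.05 and the median difference was 0.00, with summed levels of 202 to 251 CPM at day 3 and 228 to 267 CPM at day 5. Ddx4, a helicase of the germ line, measured 0.830, 3.68 and 3.65 CPM and then 3.30, 2.34 and 1.90 CPM, and Dazl, an RNA-binding protein of the germ line, 2.91, 9.29 and 9.78 CPM and then 13.8, 7.87 and 15.8 CPM. Both genes were detected in every library, and both overlapped between the days. Of the 16 markers of peritubular myoid and smooth muscle cells 2 were higher (2.83% of all genes) and 1 lower (5.48%) at that level. Their sums overlapped, at 6440 to 7535 and 6651 to 7139 CPM.

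Leydig cell markers other than Dlk1 did not separate in common. Star, which carries cholesterol into mitochondria for steroid synthesis, measured 16.3, 8.62 and 12.5 CPM at day 3 and 16.9, 19 and 18.6 CPM at day 5 (difference 0.55 ± 0.20, adjusted p = 0.577, limma). Cyp11a1, the enzyme of the first step, measured 14.1, 10.2 and 12.1 CPM and then 13.0, 11 and 8.20 CPM. Cyp17a1 and Lhcgr, defining genes of hormone-producing Leydig cells, stayed under 1 CPM in all 6 libraries and were not tested. Of the 10 markers tested, 5 lay above and 5 below 0. Without overlap, 1 was higher (5.42% of all genes), namely Star, and 2 were lower (7.43%). At an unadjusted p under 0.05, 1 was higher (2.83% of all genes) and 2 lower (5.48%). The sums of the list did not overlap, at 441 to 467 CPM at day 3 and 364 to 429 CPM at day 5, with the lowest in replicate 3 of day 5.

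Markers of vessels, leukocytes and red cells gave no call either. The 9 markers of macrophages and leukocytes tested had a median difference of -0.21 and overlapping sums of 31.2 to 51.1 and 35.4 to 40.8 CPM, and Cd163 was at 0 in all 6 libraries. The 7 endothelial markers tested had a median of -0.21, and Cdh5, the cadherin of endothelial junctions, measured 110, 108 and 92.8 CPM at day 3 and 79.6, 89.8 and 45.3 CPM at day 5. Alas2, the enzyme of haem synthesis in red cell precursors and the only gene tested of that list, measured 43.0, 40.9 and 52.7 CPM and then 20.2, 10.5 and 29.3 CPM (difference -1.25 ± 0.38, adjusted p = 0.544, limma). Alas2 was lower in the freshly isolated cells, at 5.74, 4.13 and 8.03 CPM. Of the listed genes under the filter, the globin gene Hbb was at 0 in all 6 libraries. Hba-a1, Slc4a1 and Ahsp reached at most 0.258, 0.968 and 1.01 CPM in these, so the level of Alas2 alone does not trace red cells. The part of vessels, leukocytes and red cells in the differences above was not tested.

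Of all 35 gene lists, 34 had no called member, and the other, of transforming growth factor beta and BMP signalling, had Tgfbi alone among 28 tested. Lower values were not limited to the lists described above. Of 14 interferon response genes tested, 12 were below 0 (6874 of all 12363 genes). At an unadjusted p under 0.05, 4 of them were lower (5.48%) and 0 higher, or 2 lower without replicate 3 of day 5 (3.21%). Of 10 interstitial progenitor and fibroblast markers tested, 9 were below 0.

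**Figure D5:**
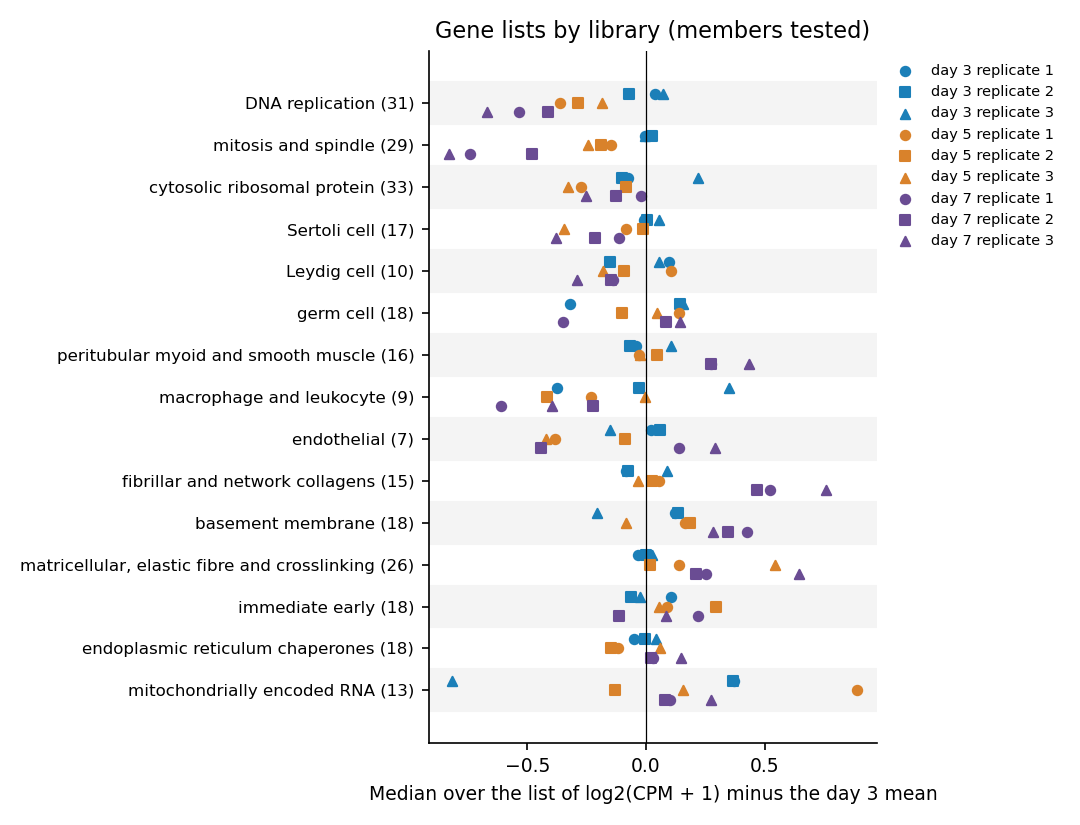
For 15 gene lists (number of genes tested in brackets), the median over the list of log2(CPM + 1) minus the day 3 mean, with 1 point for each of the 9 culture libraries, coloured by day and shaped by replicate. DNA replication and mitosis are lower in all day 5 libraries than in all day 3 libraries, while most other lists overlap between these days and the mitochondrially encoded list ranges widest among libraries of the same day.

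The library that stood apart is described by the genes in which it was most distant from the other day 5 libraries. The genes highest in replicate 3 included Frzb, a secreted Wnt antagonist, at 41.4 CPM against 13.4 and 7.30 CPM, and Spp1, the matrix protein osteopontin, at 264 CPM against 74.9 and 56.9 CPM. Cilp, a matrix protein of cartilage, stood at 136 CPM against 43.7 and 18.7 CPM. The genes lowest in it included Ndufa3, a subunit of respiratory complex I, at 1.32 CPM against 14.9 and 17.7 CPM, and Chchd10, a mitochondrial protein, at 0.212 CPM against 8.57 and 22.1 CPM. Frzb, Cilp and Spp1 overlapped between day 3 and day 5, and Ndufa3, without overlap, had an adjusted p of 0.589 (limma).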

How the data were processed

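Expression values in CPM, deposited by the authors for 21425 genes, were used as given. Per the labels' protocols, messenger RNA was taken with poly-T beads into non-directional libraries. The aligner was STAR and the build mRatBN7.2, per the submitters' processing notes; version, counting tool and annotation are not given in the sources used here. All values were whole multiples of 1 read to within 0.01 read, so reads were recovered. The columns of no known sample numbered 0.

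Genes with at least 1 CPM in at least 3 of the 6 libraries were fitted as log2(CPM + 1) with limma 3.58.1 (R 4.3.3, trend), over 9 libraries with group means only, two-sided, with Benjamini-Hochberg adjustment. edgeR 4.0.16 and DESeq2 1.42.0 on the recovered reads, other samples, pseudocounts, filters, scalings, blocks and left-out libraries were alternatives. The procedure was tested on simulated counts with known changes, in which no library stood apart from its group. A library like replicate 3 of day 5 was thus outside that test. In each of the 12 pairs of replicates in the baseline groups, counts differed beyond sampling noise.

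The comparison and the 35 gene lists were chosen with earlier results of these data known. Of the 713 symbols on the lists, synonyms matched 5, 37 were not analysed here, and 87 genes did not pass the filter. Genes were named by a rule that took called genes with and without replicate 3 of day 5, up to 4 called and 2 uncalled members of each list, a panel of testis genes and the 5 highest and 5 lowest genes of that library. The 30 smallest p-values and other list members were added after values were seen.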

Additional observations from a re-analysis of the deposited data

How the results depend on the processing

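The result given was 4 genes higher and 2 lower at day 5. With the 6 libraries alone there were 3 and 3, with all 12 baseline libraries 8 and 6, without a filter 2 and 3, and with a minimum of 5 CPM 2 and 2. Pseudocounts of 0.1 and 5 gave 4 and 2 and 3 and 2, TMM scaling 4 and 2, and edgeR on the recovered reads 3 and 2. DESeq2 called 26 and 39; the cause of its larger number was not tested. Leaving out 1 of the 9 libraries gave 1 to 7 higher and 1 to 4 lower, with 7 and 4 without replicate 2 of day 5. Array weights gave 2730 and 3978, but the estimate stopped before converging with weights of 9.06 for replicate 1 of day 3 and 15.9 for replicate 1 of day 5 against 0.182 to 0.844 for the others, so that the fit was close to 1 library against 1. Under those weights Uchl1 changed sign to 0.21 and Etv5 to -0.17. The 4 alternatives that left out replicate 3 of day 5 were chosen after seeing the data. The 6 libraries alone gave 2 and 2, edgeR 2 and 2, DESeq2 20 and 16, and all 12 libraries 4 and 4. Whether samples with the same replicate number share more than that number was not settled. Their deviations correlated at -0.370 to 0.0935 between day 3 and day 5. Over all 9 pairs of the same number among days 3, 5 and 7 the range was -0.370 to 0.364. A replicate block by that number gave 2 and 2. A block by the number in the library names, which correlated at 0.0935 and 0.218 in the 2 pairs that days 3 and 5 share, gave 17 and 11. By replicate number, 5 of the 9 libraries were closest to one of their own number. Of the called genes, Rlim kept its call in all 25 alternatives and Nfs1 in 22 of 24, losing it in the 2 fits with 12 libraries (highest adjusted p 0.204). Tgfbi lost it in 3, Scube2 in 9, Gstm5 in 10 of 24 and Pcdh20 in 15 of 24, and none reversed. Signs of uncalled genes were not counted. Depth limits calls for low genes, where 3 reads are up to 0.174 CPM.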
